A study of Mus musculus with 7 samples.

Results

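The genes described here encode the subunits of oxidative phosphorylation. They were taken as the rows of the count matrix whose symbol names a subunit of complex I (mt-Nd, Ndufa, Ndufb, Ndufc, Ndufs, Ndufv), complex II (Sdha to Sdhd), complex III (mt-Cyt, Uqcr, Cyc1), complex IV (mt-Co, Cox4 to Cox8) or complex V (mt-Atp, Atp5). This gave 99 of 27998 genes, 86 encoded in the nucleus and 13 in the mitochondrial genome. Complex I contributed 38 nuclear and 7 mitochondrial genes, complex II 4 nuclear genes, complex III 9 and 1, complex IV 18 and 3, and complex V 17 and 2. The choice was by symbol, so it holds Atp5s and Atp5sl, which are not subunits of the synthase, and it counts Ndufa4 and Ndufa4l2 with complex I although the Ndufa4 protein is now assigned to complex IV. Cox7b2 had no count in any cell, and Cox8c had 2 UMIs in all.

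The series holds single-cell RNA-seq libraries, 1 per mouse, from the abdominal mammary glands of nulliparous females whose mixed background was FVB, 129 and C57BL/6J. The young mice (Young A, B and C) were 3 to 4 months old and the aged mice (Aged A to D) 13 to 14 months old, all at diestrus, and the labels name no treatment. Lymph nodes were removed, the tissue was dissociated with enzymes, and cells were captured with the 3′ chemistry of the Chromium platform, which counts each captured mRNA molecule once by its unique molecular identifier (UMI). A library held 1264 to 2865 cells and 6652599 to 16999625 UMIs, and the 13684 cells carried 13 cell type names given by the authors. In a check of 7 marker lists among the 7 cell types compared with age, each was highest in the type it marks, by 1.52-fold over the next of these types for vascular endothelial markers and by 84.1-fold for myoepithelial keratins. The other 6 types, among them HS-AV cells and Ma macrophages, were not ranked in that check. Barcodes were written differently in the files of the young and the aged mice, so an effect of age and an effect of how the libraries were processed cannot be told apart below.

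Complexes I to IV pass electrons from NADH and succinate through ubiquinone and cytochrome c to oxygen, and complexes I, III and IV pump protons across the inner mitochondrial membrane while doing so. Complex V, the ATP synthase, lets the protons flow back and makes ATP. Most subunits are nuclear-encoded and imported, while the mitochondrial genome is transcribed from both strands as long precursors that are then processed into shorter transcripts. In the mammary gland, contractile myoepithelial cells surround the luminal hormone-sensing (HS) and secretory alveolar (AV) cells.

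Values are given as CPM, the UMIs of a gene scaled to a total of 1000000 UMIs over all genes in the cells of 1 type from 1 mouse. A UMI is counted near the 3′ end and once per molecule, so these levels were not divided by transcript length. For the sum over all nuclear-encoded members the order of the cell types was led by HS cells, in which they made up 3.47% ± 0.396 of all UMIs (SD, n = 7 mice). HS-AV cells, which carry markers of both luminal types, followed with 3.11% ± 0.136 (n = 6), then NK cells with 2.54% ± 0.383 (n = 5), pericytes with 2.32% ± 0.179 (n = 7), T and B cells with 2.25% ± 0.585 (n = 7) and Ma macrophages with 2.08% ± 0.364 (n = 3). AV cells had 1.99% ± 0.335, lymphatic endothelial cells 1.97% ± 0.250 (n = 5), vascular endothelial cells 1.97% ± 0.355, dendritic cells 1.96% ± 0.420 (n = 5), myoepithelial cells 1.79% ± 0.515, fibroblasts 1.77% ± 0.320 and Mb macrophages 1.36% ± 0.585. Between neighbours in this order, the gap from HS-AV to NK cells exceeded the larger of the 2 SDs, and the other gaps did not. The types also differed in their mix of ages. Ma macrophages came from the 3 young mice alone, and they exceeded AV cells in 0 of these 3 mice. The cell types are clusters of these same cells, so these levels are a description and were not tested.

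Within single mice HS cells exceeded AV cells in 7 of 7 mice, with a median ratio of 1.77 (1.52 to 1.84), and exceeded myoepithelial cells in 7 of 7 mice, with a median ratio of 2.08 (1.51 to 2.35). HS-AV cells exceeded AV cells in 6 of 6 mice, but their order against HS cells varied, with HS cells higher in 3 of 3 young and 1 of 3 aged mice (ratios 0.914 to 1.34). The aged values rest on few HS-AV cells, 6, 6 and 4 in Aged A, B and D. Young A, B and C held 12, 130 and 115. Of the 77 nuclear-encoded members with more than 1000 UMIs in total, 38 were highest in HS cells, 11 in NK cells and 8 in HS-AV cells, and 47 were lowest in Mb macrophages.

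The 13 mitochondrial genes together exceeded the 86 nuclear-encoded members in the mean of each of the 13 cell types. They made up 4.49% ± 0.583 of UMIs in HS cells, 4.48% ± 0.932 in HS-AV cells, 4.28% ± 1.04 in myoepithelial cells and 4.16% ± 0.568 in pericytes. The lowest share was in fibroblasts, 2.20% ± 0.154, and no gap between neighbours in the order of the mitochondrial sums exceeded the larger SD. AV cells were second to HS cells among the common epithelial types for the mean nuclear sum. That sum exceeded the one of myoepithelial cells in 1 of 3 young and 4 of 4 aged mice. For the mitochondrial sum AV cells were below myoepithelial cells in 7 of 7 mice (median ratio 0.764). Pericytes exceeded vascular endothelial cells for it in 7 of 7 mice (median ratio 1.53). mt-Atp6 (a proton channel subunit of complex V), mt-Co3 and mt-Co1 (core subunits of complex IV) had the highest mean levels over cell types, 6771, 6533 and 6326 CPM.

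**Figure D1:**
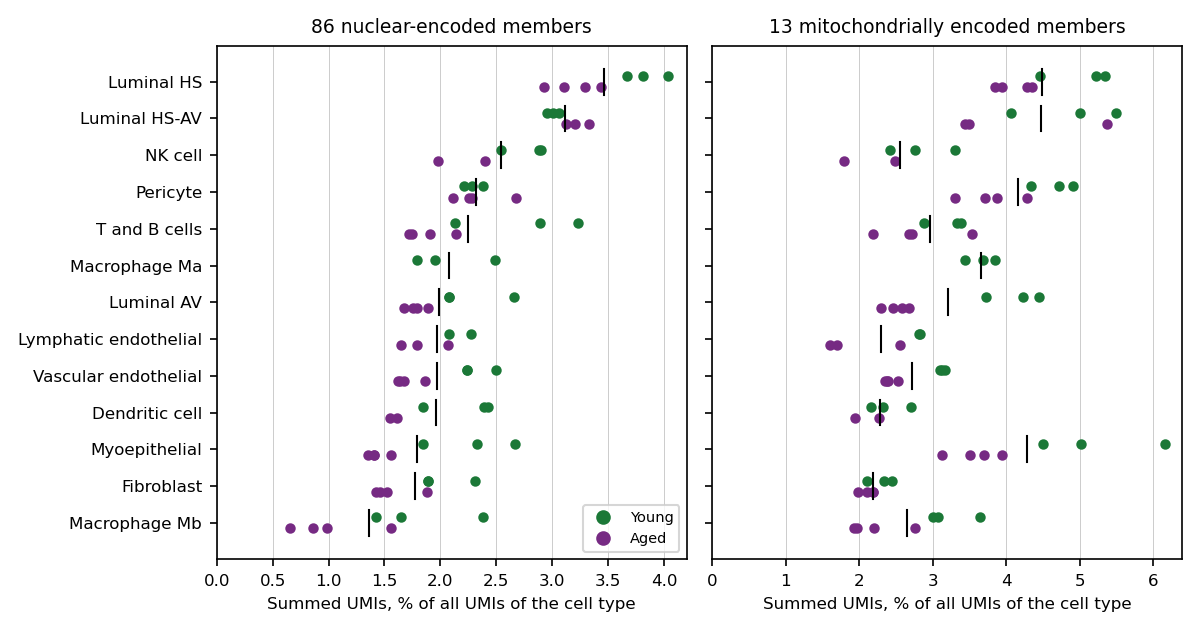
Summed nuclear-encoded (86 genes) and mitochondrially encoded (13 genes) members as a percent of all UMIs in each of the 13 cell types. Each point is 1 mouse, green for young and purple for aged, and the black lines mark the mean over mice. HS cells lead both orders, and fibroblasts are lowest for the mitochondrial sum.

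Among the nuclear-encoded members of each complex, the highest mean over cell types belonged to Ndufa4 (436 CPM), Sdhb, the iron-sulphur subunit of complex II (125 CPM), Uqcrh, the hinge protein of complex III (670 CPM), Cox4i1, which helps to regulate complex IV (1285 CPM), and Atp5l, a membrane subunit of the synthase (708 CPM). The lowest, among those of at least 10 CPM, were Ndufs1 (14.2 CPM), Sdhd (50.1 CPM), Cyc1 (85.5 CPM), Cox6b2 (10.3 CPM) and Atp5sl (14.0 CPM). In 57 of the 77 nuclear-encoded members with more than 1000 UMIs the highest type was less than 2 times the median type, as for Cox4i1 (HS cells, 2204 ± 202 CPM, 1.95 times), and in 76 it was less than 3 times. Ndufa7, an accessory subunit of complex I, was the exception with 1041 ± 182 CPM in HS cells (n = 7), 3.88 times the median type. Ndufc1, another accessory subunit, was highest in HS-AV cells at 324 ± 132 CPM (n = 6), 2.92 times the median type. Atp5sl was highest in lymphatic endothelial cells at 37.7 ± 45.8 CPM (n = 5), an SD larger than the level itself.

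Departures of another order came from subunit isoforms that have a common form and a form restricted in tissue. Ndufa4l2, a paralogue of Ndufa4 that is known as a target of hypoxia signalling (chromosome 10, 127514967 to 127517154, GRCm38), was a pericyte gene in these glands. It reached 272 ± 71.4 CPM in pericytes (n = 7), against 0.608 CPM in the median cell type. Its level was 261, 207 and 306 CPM in pericytes of Young A, B and C and 236, 419, 238 and 240 CPM in Aged A to D, so the age groups overlapped (log2 difference 0.32, edgeR adjusted p = 0.433). Of the UMIs of the Ndufa4 and Ndufa4l2 pair, Ndufa4l2 had 43.6% in pericytes (490 of 1123) but 3.08% in vascular endothelial cells, 3.97% in fibroblasts and 0.0920% in myoepithelial cells.

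Cox4i2, the isoform of Cox4i1 described for lung and for oxygen-sensing cells (chromosome 2, 152754173 to 152765037), was also highest in pericytes, at 76.96 ± 35.94 CPM against 2.42 CPM in the median type. The values were 149, 56.6 and 73.2 CPM in the young and 50.5, 95.4, 45.2 and 68.6 CPM in the aged mice, again overlapping (log2 difference -0.43, edgeR adjusted p = 0.521). It made up 7.86% of the UMIs of the Cox4i pair in pericytes and at most 0.675% in the other epithelial, fibroblast and vascular types compared with age. Cox4i1 itself was at 1117 ± 138 CPM in pericytes, close to its median over types of 1132 CPM.

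Counts per cell gave the same picture. At least 1 UMI of Ndufa4l2 was found in 184 of 349 pericytes (52.7%), whose median UMIs per cell were 3716 to 5901 by mouse, while all 2138 HS cells, with medians of 6588 to 9616, held 1 UMI. Of these 184 pericytes, 181 (98.4%) also held a UMI of a pericyte marker (Rgs5, Des or Notch3), against 103 of the other 165 (62.4%). In vascular endothelial cells the gene was found in 71 of 1819 cells (3.90%). A pericyte marker was found in 58 of these 71 (81.7%), against 163 of the other 1748 cells (9.33%). In fibroblasts, by contrast, 6 of the 86 cells with Ndufa4l2 (6.98%) held such a marker, against 2.88% of the other fibroblasts. The cells with Cox4i2 in the vascular endothelial type behaved like those with Ndufa4l2, with a pericyte marker in 72.7% of 44 cells against 10.6% of the other cells.

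**Figure D2:**
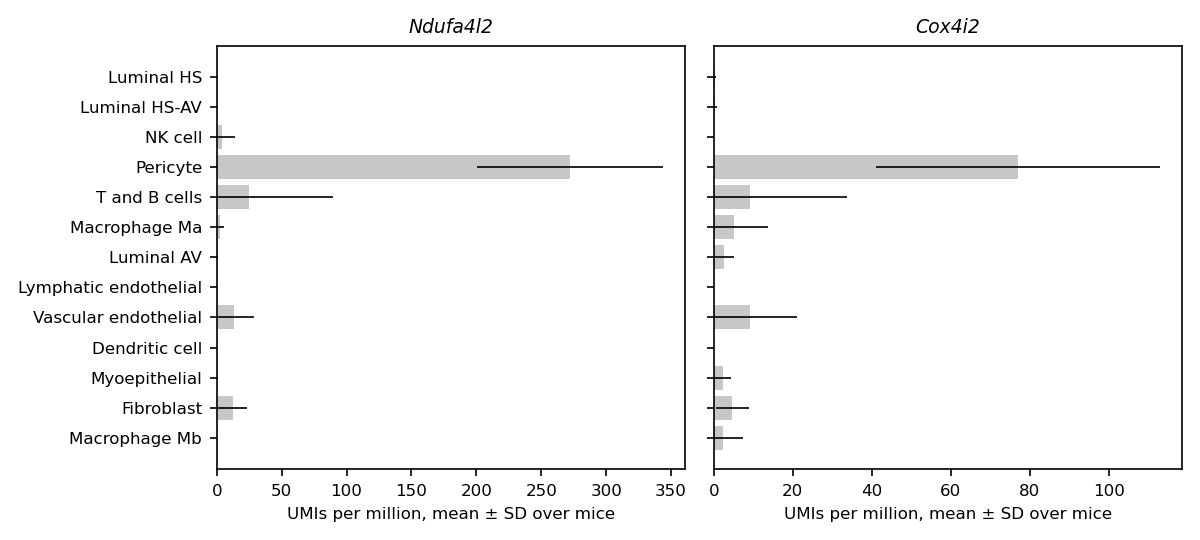
Levels of Ndufa4l2 (left) and Cox4i2 (right) as CPM on a linear axis, by cell type. Bars give the mean over mice and lines the SD, drawn no lower than 0. Pericytes lead both panels at 272 and 76.96 CPM, and the bar of Ndufa4l2 in T and B cells, 24.6 CPM, has an SD above its mean.

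The isoforms known from muscle and brown fat were at the edge of detection. All 33 Cox6a2 UMIs of AV cells came from 1 cell of Young B, and the same library's AV cells held 19 Cox8b UMIs in 1 cell. That library's AV cells had skeletal muscle markers (Acta1, Ckm, Mylpf, Tnnt3 and Myh4) at 2407 CPM in sum, against 1.2 to 2.5 CPM in the other libraries. Cox8b was otherwise found mainly in vascular endothelial cells, with 58 UMIs in 49 cells over all mice, most of them from young mice. It stood at 6.32, 22.9 and 1.37 CPM in the young and 1.06, 0.698, 0 and 0 CPM in the aged mice. Of those 49 cells, 24 (49.0%) held a UMI of an adipocyte marker, against 6.55% of the other vascular endothelial cells, and adipocyte markers summed to 53.0 to 63.7 CPM in the young and 0 in all 4 aged mice. Cox7a1, the heart and muscle form of subunit 7a, was spread over 219 of 4820 AV cells with at most 2 UMIs per cell outside Young B.

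Other isoform sets were shared out rather than switched. Cox7a2 had 57.5% of the UMIs of the Cox7a set in HS cells and 53.8% in pericytes, while Cox7a2l, which joins complexes into supercomplexes, led with 62.0% in AV cells, 59.3% in myoepithelial cells, 57.7% in fibroblasts and 55.3% in vascular endothelial cells. Of the genes for the c-ring of the synthase, Atp5g2 led with 61.1% in AV cells and 54.1% in HS cells, while in fibroblasts Atp5g1 (42.7%) and Atp5g2 (39.5%) were close in the UMIs pooled over mice, and the mean over mice put Atp5g2 first (284 ± 63.6 against 249 ± 111 CPM). Cox6b2, described as a testis form, made up 5.65% of the Cox6b pair in myoepithelial cells and 0.737% in AV cells. Cox6a1, Cox6b1 and Cox8a held most of the UMIs of their sets in these types.

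The age of the mice was then compared within each cell type on counts summed per mouse, with the edgeR quasi-likelihood test. Calls needed an adjusted p under 0.05 (Benjamini-Hochberg, over all genes tested) and a change of at least 1.5-fold. The test works relative to the typical gene of the cell type, through TMM scaling, so a log2 difference can be smaller or larger than the ratio of the plain CPM beside it. The members stood out in myoepithelial cells, which hold 40 to 187 cells in the young and 125 to 662 in the aged mice. There 48 of 89 members tested were lower in aged mice (53.9%), against 14.8% of the 6740 genes tested, and 0 were higher, against 12.8% (0 at an unadjusted p under 0.05, and 0 with DESeq2). The calls lay in the nuclear-encoded members, 47 of 77 (61.0%). Of the mitochondrially encoded members 1 of 12 was called lower, mt-Cytb, a share (8.33%) below that of all genes. The median log2 difference was -0.65 over the members and 0.01 over all genes tested, and 85 of the 89 members lay below 0.

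The young values were not alike, and Young A weighed most. The nuclear-encoded members summed to 2.66%, 1.85% and 2.32% of UMIs in Young A, B and C and to 1.41%, 1.56%, 1.40% and 1.35% in Aged A to D. Every aged mouse lay below every young mouse, and the aged mean was 37.2% below the young. Without Young A, 20 members were called lower in place of 48, without Young C 36, and 20 members were called in each of the 7 fits that left out 1 mouse. Groups did not overlap in 57 of the 89 members, aged lower, against 20.0% of all genes tested.

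Complex I, the NADH dehydrogenase, changed most often, with 29 of its 37 nuclear-encoded members lower and a median of -0.95 over them. Its summed level was 8008, 5284 and 6421 CPM in the young and 3540, 3899, 3497 and 3369 CPM in the aged mice, a fall of 45.6% in the mean. Ndufv3, a small subunit of the NADH-oxidising module (chromosome 17, 31520115 to 31531331), had the largest change. It stood at 86.9, 83.6 and 64.9 CPM in the young and at 22.1, 22.0, 13.9 and 20.0 CPM in the aged mice, and the groups were far apart (log2 difference -1.87, SE 0.24, edgeR adjusted p = 5.6e-05).

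Ndufa13, also known as Grim19, stood at 398, 275 and 308 CPM in the young and at 122, 119, 83.1 and 78.7 CPM in the aged mice (log2 difference -1.62, SE 0.21, edgeR adjusted p = 5.7e-05). Ndufa3, a small membrane-arm subunit, gave 289, 202 and 201 CPM against 86.4, 73.4, 72.3 and 68.5 CPM (log2 difference -1.55, SE 0.20, edgeR adjusted p = 5.4e-05). The aged mice were lower without overlap for both genes. Ndufb7, which sits on the outer face of the membrane arm, gave 199, 73.7 and 110 CPM in the young and 49.6, 48.6, 49.2 and 49.6 CPM in the aged mice, so that Young A was far above Young B and C while the aged values were nearly equal (log2 difference -1.40, edgeR adjusted p = 0.00104). The other complex I members named in the study's account of these cells, Ndufb10, Ndufc1, Ndufb3, Ndufa8, Ndufb9, Ndufa7 and Ndufa5, had log2 differences of -1.39 to -1.03. Its 13 members of the present list were all called lower, but that list was chosen on these same mice and is not independent evidence of a direction. Ndufs1, the largest subunit of the complex, was not called (log2 difference 0.25).

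Complex II, which also belongs to the tricarboxylic acid cycle, had 3 of 4 members lower. Sdha, the flavoprotein subunit, stood at 71.8, 59.0 and 84.4 CPM in the young and at 42.3, 29.6, 18.5 and 22.8 CPM in the aged mice, without overlap (log2 difference -1.24, SE 0.26, edgeR adjusted p = 0.00246). Sdhc (-1.24) and Sdhb (-0.65) were the others called, and Sdhd was not (-0.75, edgeR adjusted p = 0.10).

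Complex III showed few calls, 3 of 9, with a median of -0.29. Uqcr10, a small membrane subunit (chromosome 11, 4701973 to 4704342), stood at 350, 157 and 250 CPM in the young and 96.5, 89.2, 75.4 and 90.1 CPM in the aged mice, again with Young A highest and no overlap (log2 difference -1.48, SE 0.24, edgeR adjusted p = 2.93e-04). Uqcr11 (-1.27) and the core protein Uqcrc1 (-0.80) were also lower. Uqcrfs1, the Rieske iron-sulphur protein, and Uqcrb lay at 0.05 and -0.01 and were not called.

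Complex IV had 5 of 12 members lower (Cox6c, Cox5b, Cox8a, Cox6b1 and Cox6a1, from -0.79 to -0.60), with overlapping groups in Cox6c and Cox6b1. Complex V had 7 of 15 lower. Atp5k, subunit e of the synthase, stood at 312, 270 and 325 CPM in the young and 131, 119, 92.3 and 112 CPM in the aged mice, with no overlap (log2 difference -1.31, SE 0.19, edgeR adjusted p = 1.25e-04). Atp5j (coupling factor 6) gave a log2 difference of -1.06. The catalytic subunits Atp5a1 and Atp5b, at 0.01 and -0.12, were not called.

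**Figure D3:**
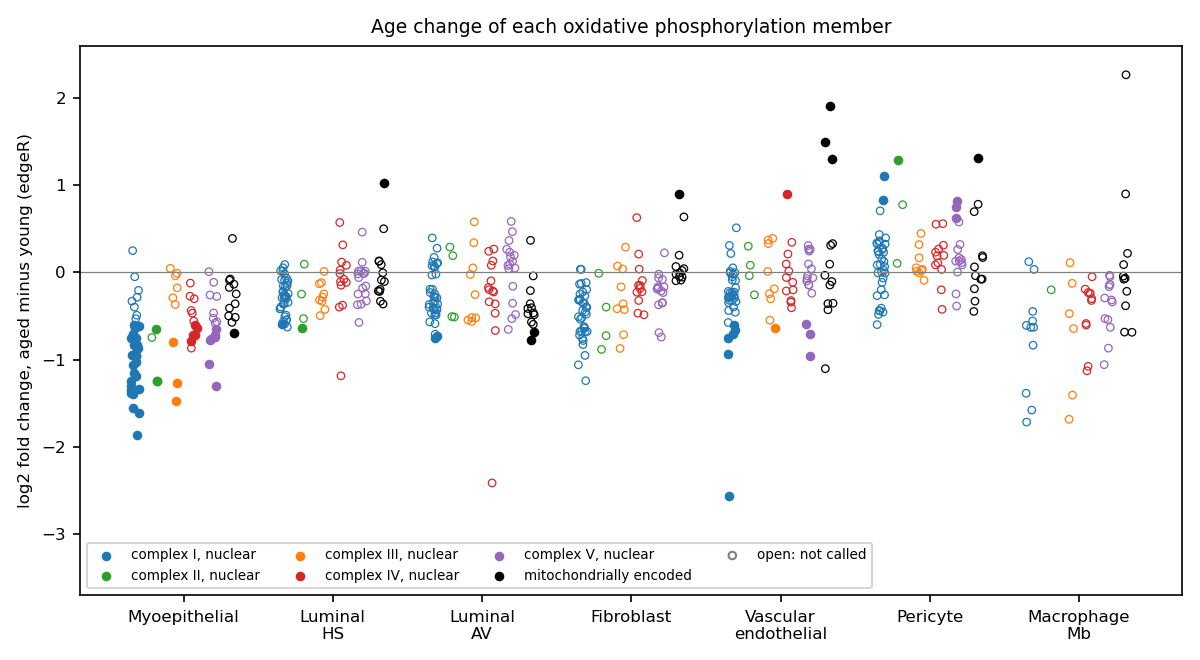
Fitted log2 fold changes, aged minus young, of the members tested in each of the 7 cell types. Each point is 1 member, coloured by complex, with mitochondrially encoded members in black, and filled where it was called. In myoepithelial cells most complex I points are filled and below 0, with a median of -0.95, while in pericytes the 7 filled points lie above 0.

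**Figure D4:**
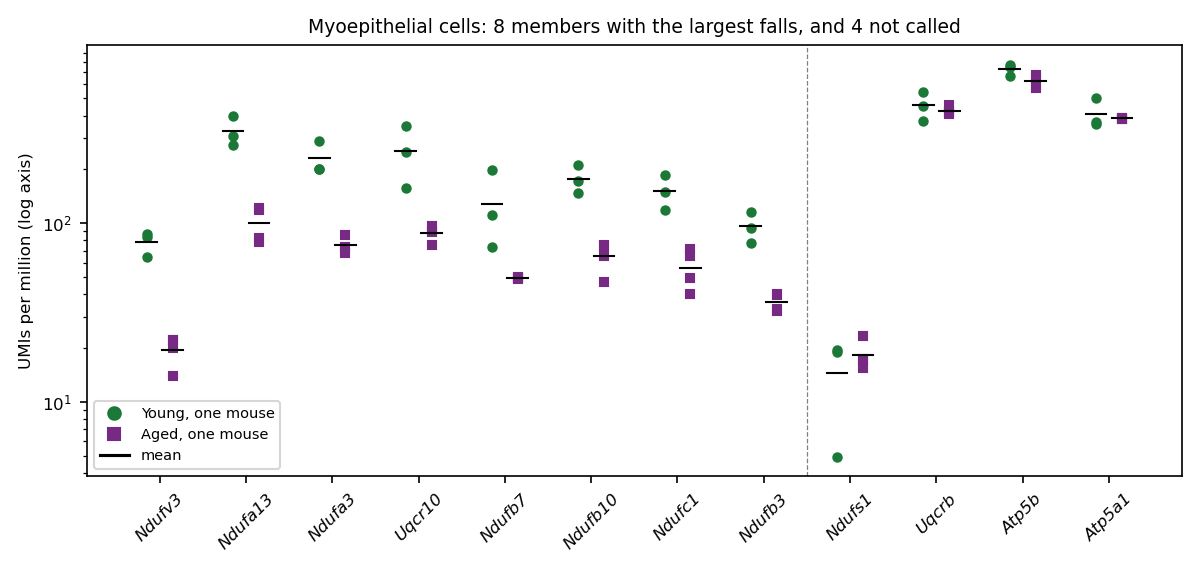
Levels in myoepithelial cells, as CPM on a log axis, of the 8 members with the largest falls (left of the dashed line) and of 4 members that were not called. Each point is 1 mouse, circles young and squares aged, and the lines mark means. The aged mice lie below the young for each of the 8, and the groups overlap for the 4 not called.

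Other measures moved with age in the same myoepithelial libraries. Fibroblast markers (Col1a1, Col1a2, Col3a1, Fn1 and Pdgfra) summed to 54.1 to 213 CPM in the young and 4.56 to 27.6 CPM in the aged mice, and macrophage markers to 167 to 257 against 34.8 to 73.6 CPM. Luminal keratins overlapped, at 720 to 1362 against 953 to 1643 CPM, as did 10 genes induced by dissociation (6193 to 10086 against 6104 to 9330 CPM) and cytoplasmic ribosomal protein genes (mean 32.1% of UMIs in the young and 33.3% in the aged mice). Median UMIs per cell were 4759 to 5226 in the young and 3797 to 4856 in the aged mice. The part of these in the lower members was not tested. With ribosomal protein and mitochondrial genes left out of the library size, all 48 calls were made again.

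The promoters of nuclear-encoded members are known to carry sites of NRF1, a regulator of genes for mitochondrial proteins. RefSeq promoters (GRCm38.p6) were found for 70 of the 86 members, and the 250 bases before each start were searched on both strands for 3 strings of letters. The NRF1 letters, GCGCA and GCGC with any 1 base between them, were in 13 of the 70 promoters (18.6%), against 4.23% of 27025 genes with an entry. Those 27025 genes were taken whether or not they were tested in these cells, and no comparison with the tested genes was made. They were in 11 of 43 members lower in aged myoepithelial cells (25.6%) and in 2 of 22 tested and not lower (9.09%). The ETS letters CCGGAAG were in 17.1% of members and 7.83% of all promoters, and the YY1 letters AAGATGGC in 2.86% and 1.83%. These are matches of letters, described without a test, and a promoter without them may still be bound. The stretches below, 30 bases each on the gene's strand, are shown because they hold the NRF1 letters (capitals) beside members named above: Atp5k at chr5:108434430-108434459 (minus strand), Ndufa8 at chr2:36049349-36049378 (minus), Sdha at chr13:74350241-74350270 (minus) and Ndufa5 at chr6:24527697-24527726 (minus).
Atp5k: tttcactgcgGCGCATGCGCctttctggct
Ndufa8: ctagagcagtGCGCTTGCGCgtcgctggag
Sdha: cgacacccgcgcgactcggtGCGCAAGCGC
Ndufa5: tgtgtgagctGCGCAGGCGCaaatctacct
Sdha held the letters at 3 positions in the 250 bases searched, the other promoters shown at 1. The starts are those of RefSeq. By the GENCODE positions of these genes, the stretches of Ndufa8, Sdha and Ndufa5 lie inside the gene, and that of Atp5k crosses its start.

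Whether the age differences of myoepithelial cells differed from those of the luminal cells of the same mice was tested as an interaction, with the mouse as a block. Against AV cells, 8 of 92 members tested had a more negative age difference in myoepithelial cells (8.7% against 3.43% of 9434 genes), and 0 a more positive one (5.82% of genes; 4 members at an unadjusted p under 0.05, and 0 with DESeq2). The largest were Sdha (log2 difference of the age differences -1.31, edgeR adjusted p = 0.0141), Ndufv3 (-1.26, 0.0091), Ndufa13 (-1.18, 0.00751), Ndufa9 (-1.09, 0.0359) and Ndufs8 (-0.997, 0.0345). Without Young A this count was 0, without Young C it was 3, and without Aged A it was 5.

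Against HS cells, 17 of 92 were more negative in myoepithelial cells (4.8% of 8480 genes) and 0 more positive (4.72%; 0 at an unadjusted p under 0.05, and 0 with DESeq2). Ndufa13 was called in all 7 fits that left out 1 mouse (-1.43, SE 0.22, edgeR adjusted p = 4.66e-04), and it was the one member of the 17 for which this held. Ndufv3 (-1.30), Sdha (-1.22), Uqcr10 (-1.06) and Ndufb10 (-0.95) followed. The count was 1 without Young A, 2 without Young C, 7 to 11 without any one of the aged mice, and 11 with ribosomal protein and mitochondrial genes left out of the library size.

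In HS cells themselves the members moved little by this test, with 2 of 93 lower (2.33% of 8457 genes) and 1 higher (3.93%). Sdhb was at 224, 175 and 197 CPM in the young and at 132, 117, 116 and 105 CPM in the aged mice (log2 difference -0.64, SE 0.14, edgeR adjusted p = 0.0245), and Ndufc2, an accessory subunit of complex I, at 221, 182 and 193 against 131, 114, 114 and 127 CPM (-0.59, edgeR adjusted p = 0.0369). Neither group of values overlapped. Without any one of Young A, B, C or Aged D, the count lower was 0. The summed nuclear share was nevertheless 4.03%, 3.67% and 3.82% in the young and 2.93%, 3.43%, 3.29% and 3.11% in the aged mice, without overlap, and 55 of 93 members were separated in this direction against 15.2% of all genes tested.

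AV cells had 4 of 94 members lower (3.26% of 11012 genes) and 0 higher (2.9%; 4 at an unadjusted p under 0.05, and 0 with DESeq2). Here a mitochondrial gene led. mt-Cytb, the cytochrome b of complex III, stood at 4656, 3703 and 3196 CPM in the young and 1710, 1943, 2124 and 1684 CPM in the aged mice (log2 difference -0.77, SE 0.17, edgeR adjusted p = 0.0279). mt-Atp6 went from 10099, 9117 and 7870 to 4524, 5339, 4032 and 4742 CPM (-0.69, edgeR adjusted p = 0.0258), and Ndufc1 and Ndufb7 were called at -0.75 and -0.73. The groups did not overlap for any of these 4. All 13 mitochondrial genes together made up 4.45%, 4.23% and 3.72% of UMIs in the young and 2.30%, 2.58%, 2.68% and 2.46% in the aged mice, a fall of 39.4% in the mean. The 4 calls fell to 0 without any one of the young mice, and to 1 or 2 without any one of the aged mice.

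Fibroblasts had 0 of 88 members lower (1.11% of 5513 genes; 20 at an unadjusted p under 0.05, and 5 with DESeq2) and 1 higher (2.07%), mt-Nd5. The median over nuclear-encoded members was -0.35, and 73 of 88 members lay below 0. Aged mice had few fibroblasts, 15 to 121 against 184 to 1034 in the young.

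Vascular endothelial cells had 10 of 92 members lower and 4 higher, which is no more than among all 7864 genes tested (12% lower and 14.7% higher). In plain CPM, 64 of the 92 members were lower in the aged mice without overlap, against 35.0% of all genes tested. Higher without overlap were 4 members, against 9.88% of all genes. Ndufa4l2, the pericyte isoform above, changed most, from 18.5, 18.0 and 44.0 CPM in the young to 3.18, 1.40, 4.46 and 3.81 CPM in the aged mice (log2 difference -2.57, SE 0.46, edgeR adjusted p = 0.00104). Pericyte markers in the same libraries summed to 98.6 to 346 CPM in the young and 5.59 to 66.9 CPM in the aged mice. Their part in the change was not tested. Atp5g3, a c-ring gene, stood at 224, 262 and 191 CPM in the young and at 92.2, 101, 88.2 and 85.7 CPM in the aged mice (-0.96, SE 0.15, edgeR adjusted p = 2.92e-04). Ndufa3 (-0.93), Ndufc2 (-0.76) and Ndufa7 (-0.71) came next, and no group overlapped for these.

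Among nuclear-encoded members, Cox7a2l was the one called higher in aged vascular endothelial cells. It stood at 463, 473 and 493 CPM in the young and 568, 743, 770 and 693 CPM in the aged mice (log2 difference 0.89, SE 0.14, edgeR adjusted p = 4.01e-04), and was called in all 7 fits that left out 1 mouse. Cytoplasmic ribosomal protein genes took 19.4% of UMIs in the young and 29.1% in the aged vascular endothelial cells, without overlap, which lowers the plain CPM of other genes in the aged mice. Macrophage markers were at 8700 CPM in Aged A and 2982 CPM in Aged D, against 197 to 670 CPM in the other mice, and erythrocyte genes at 2021 to 5271 CPM in the young against 6.98 to 359 CPM in the aged mice. Their part was not tested.

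Pericytes had 0 of 87 members lower (4.61% of 2601 genes; 4 at an unadjusted p under 0.05, and 0 with DESeq2) and 7 higher, a share (8.05%) near that of all genes tested (7.19%). Sdhc, a membrane anchor of complex II, stood at 58.8, 42.5 and 64.0 CPM in the young and at 177, 148, 67.9 and 94.3 CPM in the aged mice, with the lowest aged mouse close to the highest young one (log2 difference 1.29, SE 0.32, edgeR adjusted p = 0.0193). The calls also included Ndufb2 (0.83), Atp5a1 (0.81), Atp5d and Atp5b (0.62), with Ndufb2 an accessory subunit of complex I and the others subunits of the ATP synthase. The count was 1 without Young A, 2 without Young B and 3 without Young C or Aged B. The summed nuclear share overlapped, at 2.38%, 2.21% and 2.29% in the young and 2.68%, 2.28%, 2.11% and 2.26% in the aged mice. The mitochondrial sum was lower in the aged mice without overlap, at 4.72%, 4.91% and 4.33% in the young and 4.28%, 3.71%, 3.87% and 3.30% in the aged mice. Aged A also held macrophage markers at 1432 CPM and Aged C erythrocyte genes at 16052 CPM, and the part of these was not tested.

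In Mb macrophages, with 3 to 9 cells in an aged mouse, 0 of 53 members were called lower (0.233% of 859 genes) and 0 higher (0.931%), with 8 lower and 1 higher at an unadjusted p under 0.05, and 0 lower and 1 higher with DESeq2. The nuclear share overlapped, at 1.43% to 2.38% in the young and 0.652% to 1.56% in the aged mice. The sums of nuclear-encoded complex I (mean 5316 CPM in the young and 2383 CPM in the aged mice), nuclear-encoded complex III (2107 and 1040 CPM) and the mitochondrial members (32385 and 22125 CPM) were lower in the aged mice without overlap.

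Across the 7 cell types, Ndufb7 was called lower in 3 (myoepithelial, AV and vascular endothelial), Ndufc2 in 3 (myoepithelial, HS and vascular endothelial), and mt-Nd5 higher in 4 (HS cells, fibroblasts, vascular endothelial cells and pericytes). No other member reached 3 types in 1 direction. Of all genes, 14.8% were called lower in myoepithelial, 12% in vascular endothelial, 3.26% in AV and 2.33% in HS cells. Called higher were 14.7% in vascular endothelial cells, 7.19% in pericytes, 3.93% in HS cells and 2.07% in fibroblasts. How many of all genes reached 3 types was not counted. In plain CPM, members lower without overlap in aged mice were not confined to myoepithelial, HS and vascular endothelial cells. They numbered 56 of 94 in AV cells (20.1% of all genes tested) and 29 of 88 in fibroblasts (11.8%). In Mb macrophages they numbered 14 of 53 (18.0%) and in pericytes 7 of 87 (18.0%). The same 7 mice gave all the cell types, so these are not independent repeats. The log2 ratio of the mean summed level, aged over young, was -0.67 for the nuclear-encoded members in myoepithelial cells, -0.45 in vascular endothelial cells, -0.37 in fibroblasts, -0.36 in AV cells, -0.27 in HS cells, -0.84 in Mb macrophages and 0.025 in pericytes. For the mitochondrial members it was -0.72 in AV cells, -0.55 in myoepithelial cells and Mb macrophages, -0.38 in vascular endothelial cells, -0.30 in pericytes, -0.29 in HS cells and -0.12 in fibroblasts. No p is given for these sums, since the members are a chosen list.

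mt-Nd5 encodes a proton-pumping subunit of complex I (mitochondrial genome, 11742 to 13565, plus strand). In vascular endothelial cells it stood at 205, 239 and 176 CPM in the young and 554, 629, 677 and 587 CPM in the aged mice (log2 difference 1.91, SE 0.15, edgeR adjusted p = 2e-06). In pericytes it went from 297, 346 and 224 to 767, 567, 662 and 592 CPM (1.31, SE 0.21, edgeR adjusted p = 0.00231). Aged mice were higher without overlap, and the call held in all 7 fits that left out 1 mouse, in both types.

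HS cells held 207, 270 and 186 CPM of mt-Nd5 in the young and 294, 319, 582 and 455 CPM in the aged mice (log2 difference 1.02, SE 0.27, edgeR adjusted p = 0.0463), and fibroblasts 135, 127 and 121 against 179, 236, 253 and 247 CPM (0.90, SE 0.22, edgeR adjusted p = 0.0381). These were less firm, since the call was lost in HS cells without any one mouse but Aged A or B, and in fibroblasts without any one mouse but Aged A. The fitted differences in AV (0.37), myoepithelial (0.39) and Mb cells (2.26) did not pass the test.

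Taken as a share of the UMIs of the 13 mitochondrial genes, which does not depend on the nuclear genes, mt-Nd5 was higher in every aged than in every young mouse in all 7 cell types. The mean went from 0.555% to 0.977% in myoepithelial cells, from 0.430% to 0.752% in AV cells, from 0.439% to 1.01% in HS cells and from 0.558% to 1.08% in fibroblasts. It went from 0.660% to 2.53% in vascular endothelial cells, from 0.617% to 1.71% in pericytes and from 0.471% to 2.63% in Mb macrophages. The ratio of these means ran from 1.75 in AV cells to 5.59 in Mb macrophages. mt-Nd4l, which encodes another membrane subunit of complex I, also had a higher mean share in aged mice in all 7 types (ratios 1.201 to 2.504), without overlap in 4 of them (HS, fibroblasts, vascular endothelial cells and pericytes). mt-Nd2 and mt-Nd4 were higher without overlap in 3 types each, mt-Co1 in 2 and mt-Atp8 in 1, while mt-Atp6 was lower without overlap in 6, mt-Cytb in 3, mt-Co2 in 2 and mt-Nd6 in 1. The shares of the 13 genes add up to the whole in each mouse, so a lower share of an abundant gene raises the summed share of the others. The counts of separate genes are therefore not independent. This share was looked at after the values were known and is given without a test.

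In vascular endothelial cells mt-Atp8 and mt-Nd4l were also higher, 2 short genes that overlap the next gene of the same strand by 43 bases (mt-Atp6) and 7 bases (mt-Nd4). mt-Atp8 stood at 122, 123 and 55.0 CPM in the young and 295, 218, 156 and 233 CPM in the aged mice (log2 difference 1.49, SE 0.26, edgeR adjusted p = 8.15e-04), and mt-Nd4l at 97.7, 127 and 121 against 239, 192, 254 and 204 CPM (1.30, SE 0.17, edgeR adjusted p = 9e-05). Reads in an overlap cannot be assigned to 1 of the genes. Whether mt-Atp8 and mt-Nd4l changed as transcripts apart from mt-Atp6 and mt-Nd4 was not tested. mt-Nd5 overlaps mt-Nd6 by 14 bases on the other strand. The remaining mitochondrial genes were mostly at or below 0 in these cells, from 0.33 (mt-Co1), 0.31 (mt-Nd4) and 0.09 (mt-Nd2) to -0.04 (mt-Co3), -0.11 (mt-Cytb), -0.15 (mt-Nd1), -0.36 (mt-Co2 and mt-Nd3), -0.43 (mt-Atp6) and -1.10 (mt-Nd6, few counts), and none of these was called.

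**Figure D5:**
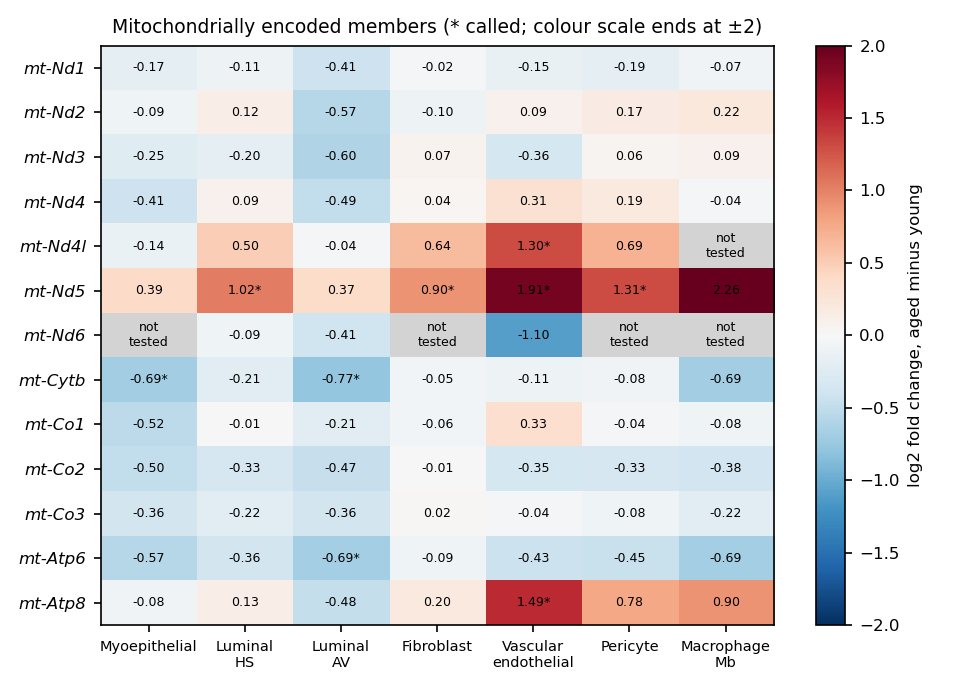
Fitted log2 fold changes, aged minus young, of the 13 mitochondrially encoded members (rows) in the 7 cell types (columns). Red is higher in aged mice and blue lower, stars mark calls and grey cells were not tested. mt-Nd5 is above 0 in every type, while mt-Atp6, mt-Co2, mt-Cytb and mt-Nd1 are below 0 in every type.

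The interaction of age with vascular endothelial cells against fibroblasts called 2 of 93 members more positive in vascular endothelial cells (3.63% of 8599 genes) and 0 more negative (1.99%; 4 at an unadjusted p under 0.05, and 0 with DESeq2). They were mt-Atp8 (1.49, SE 0.29, edgeR adjusted p = 0.00314) and mt-Nd5 (1.01, SE 0.24, edgeR adjusted p = 0.0129), each called in all 7 fits that left out 1 mouse. mt-Nd5 rose in both types, and by more in vascular endothelial cells.

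Other mitochondrial gene lists were counted in the same fits. In myoepithelial cells 3 of 16 tricarboxylic acid cycle genes were lower (Suclg1, a succinyl-CoA ligase subunit, at -1.40, Idh3g at -1.17 and fumarase Fh1 at -1.04) and 1 higher (Dld). Of the assembly factors, which build the complexes but are not part of them, 4 of 18 were lower, among them Coa3 (-1.15), Cox20 (-0.98) and Cox14 (-0.96). Carriers and electron transfer proteins had 3 of 13 lower: Etfb, which feeds electrons from fatty acid oxidation (-1.78, edgeR adjusted p = 1.16e-04), the ADP/ATP carrier Slc25a4 (-1.08) and the synthase inhibitor Atpif1 (-1.01). Mitochondrial ribosomal proteins had 14 of 71 lower, led by Mrpl34 (-1.98), Mrpl28 (-1.82) and Mrpl55 (-1.78). Of the transcription factors and regulators, 1 of 7 was lower, Slirp, which stabilises mitochondrial mRNA (-0.72). The shares called lower in these lists lay nearer to the 14.8% of all genes than the 53.9% of the subunits did. Against 12.8% of all genes tested, 0 of the 71 ribosomal genes, 18 assembly factors, 13 carriers and 7 regulators were called higher. In that respect these 4 lists were like the subunits. The cycle genes had 6.25% higher.

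In HS cells the mitochondrial ribosome had 8 of 76 lower (10.5%, against 2.33% of all genes tested) and 1 higher (1.32% against 3.93%), led by Mrps18c (-1.13), Mrps12 (-1.03) and Mrpl18 (-0.94), while 1 of 16 cycle genes (Pdhb, -0.76) and 1 of 31 assembly factors (Coa3, -0.85) were lower and carriers (0 of 13) and regulators (0 of 10) held no call. AV cells, with 3.26% of all genes lower and 2.9% higher, gave 2 of 32 assembly factors lower (Ndufaf4 at -1.25 and Uqcc2 at -0.99) and 1 higher (Surf1, 0.78), and 1 gene higher in each other list, Idh3b (0.65), the uncoupling protein Ucp2 (1.20), Mrps6 (1.54) and Mtpap (0.90). Vascular endothelial cells had 7 of 71 mitochondrial ribosomal genes lower (9.86%, against 12% of all genes) and 4 higher (5.63% against 14.7%), so neither share exceeded that of all genes. These were led by Mrpl41 (-1.15), Mrpl16 (1.09) and Mrps12 (-1.07). In the same cells 1 of 16 cycle genes (Suclg1, -0.95) and 2 of 29 assembly factors (Sco2, -1.05, and Coa3, -0.91) were lower, 1 of 13 carriers (Slc25a4, 0.61) was higher and 0 of 7 regulators were called. Pericytes had 1 of 8 cycle genes, Idh3b (1.24), and 2 of 12 carriers, the outer membrane channel Vdac1 (1.03) and Slc25a5 (0.70), higher (7.19% of all genes). Fibroblasts had 1 of 15 assembly factors lower (Uqcc2, -1.15; 1.11% of all genes). No gene of these lists was called in Mb macrophages.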

How the data were processed

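Single-cell RNA of dissociated mammary glands was measured in 3 young and 4 aged mice. The authors mapped 10x 3′ reads to mm10 with Cell Ranger 2.0 and deposited the UMI counts of each gene in each cell, not normalized, after filtering cells on UMIs, genes and mitochondrial UMIs. The authors estimated doublets with Scrublet and DoubletFinder, removal of such cells is not stated, and none were removed here outside the alternative on cells with many genes. The deposited fraction of mitochondrial UMIs of each cell was read and not used in a test. The 13 cell types are the authors' names. Pairs of libraries shared 1 to 10 cell barcodes (21 pairs).

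The counts of 1 cell type in 1 mouse (at least 3 cells) were added and, in 7 types, fitted with edgeR 4.0.16 (quasi-likelihood, TMM, filterByExpr, R 4.3.3), adjusted over all genes tested. Calls needed a Benjamini-Hochberg adjusted p under 0.05 and 1.5-fold. Pairs of types (3 in all) were fitted with an age by type term and the mouse as a block. The remaining steps used Python 3.11.15, pandas 2.3.3, numpy 2.4.6, scipy 1.17.1 and matplotlib 3.10.9. The fits were tested on simulated data. The alternatives were DESeq2 1.42.0, RLE factors, library sizes that leave out ribosomal protein and mitochondrial genes, an unfiltered fit, no fold minimum, a replicate block, at least 10 cells, no cells above the 95th percentile of genes, other denominators of the sums, and each mouse left out.

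The members and lists were chosen with earlier results of these data known. Named are all mitochondrial members, the 5 called members with the largest change per comparison and direction, those called in 3 types, the highest and lowest per complex, the isoform pairs, the subunits the paper names in myoepithelial cells, the 5 with the largest ratio of highest to median type, and the 3 largest calls of each other list (16 tricarboxylic acid cycle genes, 34 assembly factors, 13 carriers, 77 mitochondrial ribosomal genes and 14 regulators). The 115 cytoplasmic ribosomal protein genes and 10 dissociation genes were used as shares of counts. Members outside this rule were named after their values were seen. A member that this rule would name is not reported here. Letters A to D were not taken as pairs of mice in the main fits. The correlation of deviations of same-lettered mice was -0.17 to 0.37 in 21 pairs, and 1 exceeded 0.1. These pairs come from several cell types of the same mice, and a low correlation cannot exclude a shared cage, litter or day. Gene positions are from GENCODE vM21 (GRCm38), which placed 98 members, and promoters from RefSeq (GRCm38.p6). Precision is limited by the mice and, in rare types, by counts.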

Additional observations from a re-analysis of the deposited data

Results flagged for a closer look

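In groups of 4 aged mice, the highest or lowest mouse was compared with the others by Dixon's criterion. It marked 9 of 154 groups, and chance marks about 1 in 20. Among summed levels, Aged D fibroblasts stood apart in nuclear-encoded complex I (5787 CPM, against 4056, 4303 and 4280 in Aged A, B and C) and complex III (2084 CPM, against 1731, 1720 and 1760). Aged D held 17 fibroblasts, and Aged C, which was not apart, held 15. Aged B was apart in complex II of AV cells (253.2 CPM, against 222.9, 222.3 and 226.9). Aged A pericytes, which also held macrophage markers at 1432 CPM, were apart in complex IV (8389 CPM, against 7120, 7017 and 7016). Aged C vascular endothelial cells were low in the mt-Atp genes (4439 CPM, against 4787, 4776 and 4729). In myoepithelial cells Aged B was highest in Ndufs7 (48.91 CPM), Cox6c (648.9 CPM) and Cox8a (659.6 CPM), and Aged C was lowest in Ndufs6 (64.61 CPM).

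The age difference itself differed between cell types in 8 members for myoepithelial against AV cells, in 17 for myoepithelial against HS cells and in 2 for vascular endothelial cells against fibroblasts, each by the interaction term of edgeR.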

How the results depend on the processing

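Members called lower in myoepithelial cells numbered 48, and 37 to 51 under every alternative other than leaving out a mouse and the replicate block, which gave 30. The replicate block pairs mice by letter and drops Aged D, and the letters are not known to mark a shared cage, litter or day. Under it the calls in HS cells (2 lower and 1 higher), AV cells (4 lower) and fibroblasts (1 higher) all fell to 0, those higher in pericytes fell from 7 to 2, and 1 member was higher in Mb macrophages. DESeq2 called 4 lower in HS cells, 9 in AV cells and 5 in fibroblasts, 1 higher in Mb macrophages, 16 for myoepithelial against AV cells and 10 for myoepithelial against HS cells. RLE factors gave 1 lower in fibroblasts and 14 for myoepithelial against AV cells. With no filter on low counts, 7 were lower in HS cells, 13 lower and 0 higher in fibroblasts, 1 lower and 3 higher in pericytes, 4 for myoepithelial against HS cells, and 1 lower and 4 higher for vascular endothelial cells against fibroblasts. With no fold minimum 16 were lower in vascular endothelial cells. Library sizes without ribosomal protein and mitochondrial genes left 11 for myoepithelial against HS cells. Without the cells above the 95th percentile of genes, 0 were higher in HS cells.

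Leaving out 1 mouse gave 20 to 53 lower and 0 to 1 higher in myoepithelial cells, 0 to 2 lower and 0 to 1 higher in HS cells, 0 to 2 lower in AV cells, 0 to 3 lower and 0 to 1 higher in fibroblasts, 7 to 12 lower and 4 to 5 higher in vascular endothelial cells, 1 to 7 higher in pericytes and 0 to 1 higher in Mb macrophages. The interactions gave 0 to 11 for myoepithelial against AV cells, 1 to 21 lower and 0 to 1 higher for myoepithelial against HS cells, and 0 to 1 lower and 2 to 3 higher for vascular endothelial cells against fibroblasts. Without Young A the counts were 20, 0 and 1 for myoepithelial cells and their 2 interactions. A fit with fewer mice has less power, and the cause of a single mouse's weight was not tested.

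The log2 ratios of summed levels moved by less than 1 SD in 124 of 126 settings, and the others were vascular endothelial cells scaled to the UMIs of all other genes, at -0.27 for nuclear and -0.19 for mitochondrial members. A minimum of 10 cells left the same mice in 6 types and no aged Mb macrophages, so it gave no other value.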

Other observations

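Across the 77 nuclear-encoded members tested in myoepithelial cells, the fitted age difference had a Spearman rho of 0.18 with transcript length and -0.31 with GC content (longest GENCODE vM21 transcript), and across the other genes tested 0.10 and -0.10. Genes of 1 fit are not independent replicates, so no p is given. The members are short, with a median transcript of 1129 bases against 3250 bases.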
